A study of Mus musculus with 8 samples.

Results

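The genes described here carry glucose into the cell, break it down to pyruvate and decide whether pyruvate leaves as lactate or enters the mitochondrion. They were taken as a fixed list of 38 genes, chosen with earlier results of these data known. Of these, 33 had a probe set listed for that gene alone, out of 22180 genes measured in that way on the array. The glycolytic enzymes Gpi1, Aldoa and Eno1, the pentose phosphate enzyme G6pdx and the pyruvate carrier subunit Mpc2 had none and were not analysed here. For the 5 members with several probe sets (Gapdh, Pgam1, Pdk1, Slc2a1 and Mpc1) the brightest over all arrays stood for the gene. Values are deposited log2 intensities, in which a step of 1 is a doubling. A gene was tested when at least 2 arrays gave it more than 4.24, the median of all values. This left 30 members among 13597 genes, while Pfkfb4, Fbp1 and Pcx were too dim. Fbp2 passed that filter through its inner cell mass arrays only.

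All samples were wild type C57BL/6J mouse material on an Affymetrix mouse gene array, with 2 arrays in each of 4 groups. FGF-ESC are lines from day 3.5 embryos, kept in KODMEM with 20% serum replacement (KSR) and FGF2 on mouse embryonic fibroblasts (MEF). EpiSC, the primed stem cells, had that same medium and feeder layer, and the labels trace them to day 3.5 embryos too. ESC, the naive stem cells, grew without feeders in DMEM with 15% FCS, LIF and the inhibitor pair called 2i. ICM is the uncultured inner cell mass of day 3.5 blastocysts, collected by immunosurgery. It was extracted with another column kit than the lines, so kit, culture and cell type cannot be told apart in comparisons with ICM. Likewise, medium and feeders changed together with cell type between ESC and the other lines. Whether arrays of 1 group stem from separate cultures or embryo pools is not stated.

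As background, glycolysis has an early phase that spends ATP on phosphorylating and splitting hexose and a later phase in which the triose products yield ATP and NADH. Hexokinase, phosphofructokinase and pyruvate kinase catalyse its practically irreversible steps, and several paralogues with different regulation serve each of them. Lactate dehydrogenase turns pyruvate into lactate and back, and monocarboxylate transporters move both across the membrane. In the mitochondrion the pyruvate dehydrogenase complex makes acetyl-CoA from pyruvate, and the kinases of the Pdk family switch that complex off by phosphorylating it. Early mouse embryos live mainly on pyruvate and lactate and take up more glucose toward the blastocyst stage, while pluripotent lines in culture are known for strong glycolysis.

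Promoter sequences are shown for 4 members whose levels separated groups in the data that follow: Pgk1 and Ldhb, low in ICM, Slc16a3, high in EpiSC, and Fbp2, high in ICM. They are the 250 bases before the RefSeq gene start (GRCm38.p6), 5′ to 3′ on the gene's strand, at chrX:106186850-106187099 (plus strand), chr6:142507958-142508207 (minus), chr11:120948817-120949066 (plus) and chr13:62858401-62858650 (minus). Capitals mark ACGTG on either strand, a form of the core of hypoxia response elements. The other form, GCGTG, was not searched for. CACGTG, the E-box letters read by MYC and by carbohydrate response factors, contains ACGTG on both strands and so counts as 2 matches.
Pgk1: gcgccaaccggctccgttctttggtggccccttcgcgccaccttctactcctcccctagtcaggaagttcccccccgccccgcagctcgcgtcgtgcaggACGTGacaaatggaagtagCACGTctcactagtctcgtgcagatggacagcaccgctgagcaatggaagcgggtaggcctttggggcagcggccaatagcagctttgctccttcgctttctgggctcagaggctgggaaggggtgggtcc
Ldhb: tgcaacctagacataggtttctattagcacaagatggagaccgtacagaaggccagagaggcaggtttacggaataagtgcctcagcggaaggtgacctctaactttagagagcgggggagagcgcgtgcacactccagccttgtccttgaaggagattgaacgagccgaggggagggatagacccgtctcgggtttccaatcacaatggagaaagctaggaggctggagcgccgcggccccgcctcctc
Slc16a3: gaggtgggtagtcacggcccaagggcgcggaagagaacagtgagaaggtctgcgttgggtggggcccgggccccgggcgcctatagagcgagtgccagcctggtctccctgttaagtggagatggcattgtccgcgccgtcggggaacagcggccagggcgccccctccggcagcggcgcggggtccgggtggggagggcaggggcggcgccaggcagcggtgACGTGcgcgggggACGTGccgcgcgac
Fbp2: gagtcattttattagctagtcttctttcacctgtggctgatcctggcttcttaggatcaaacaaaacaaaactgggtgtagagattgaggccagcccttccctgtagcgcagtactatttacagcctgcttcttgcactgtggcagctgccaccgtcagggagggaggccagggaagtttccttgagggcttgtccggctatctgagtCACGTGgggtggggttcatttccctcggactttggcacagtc
The Pgk1 window held 2 matches whose first bases lay 150 and 131 bases before the start, and the Slc16a3 window held 2, at 27 and 14 bases. The Fbp2 window held 1 CACGTG, 42 bases before the start. The Ldhb window held no ACGTG, though it contains the letters GCGTG, which were not counted. Of 44 starts listed for 32 of the 33 measured members, 17 (38.6%) had at least 1 ACGTG in this window, against 16.6% of all 32851 starts in the table. For CACGTG the shares were 15.9% and 6.02%. Of 14 starts of members called higher in all lines than in ICM, 35.7% had ACGTG, and of 30 starts of the other members 40%. For CACGTG these shares were 7.14% and 20%. The member windows were also richer in CG, with a median of 14 CG dinucleotides against 6 over all starts. A match describes letters only, and these were found both in a promoter of a gene low in ICM and in that of a gene high in ICM.

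The groups were checked against marker lists. All 8 naive markers were lower and all 6 primed markers higher in EpiSC than in ESC. Between ESC and ICM the naive markers were split, with 3 higher and 1 lower in ESC. Dppa3 was at 10.38 and 10.19 in ICM against 6.87 and 6.91 in ESC, Nr0b1 at 4.23 and 3.63 against 8.23 and 8.5, and the list mean at 7.27 and 7.21 against 7.80 and 7.79. Fibroblast markers stood apart on the FGF-ESC arrays: the mean of 23 such genes was 8.45 and 7.19 there, 4.18 and 4.34 in ICM, 4.90 and 5.15 in EpiSC and 4.29 on both ESC arrays. The fibroblast genes Dcn and Lum were at 9.02 to 10.05 on these arrays and at 2.87 to 3.52 in ESC and ICM. Paired arrays of FGF-ESC had a correlation over the tested genes of 0.9675, and those of the other groups 0.9828 to 0.9936, and 395 genes differed by at least 1 between the FGF-ESC arrays against 0 to 80 elsewhere. Several counts of calls for FGF-ESC, and genes that such counts gain or lose, are therefore given also without replicate 1, the array with the higher fibroblast level. In bulk RNA, fewer cells of a kind and less RNA per cell cannot be told apart.

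Most calls lay between the uncultured ICM and the lines. Transcripts of the glycolytic enzymes Pfkl, Pfkm, Tpi1, Pgk1, Eno3 and Pkm, of Ldhb and of the kinases Pdk1 and Pdk3 were lower in ICM than in each line, and the fructose bisphosphatase Fbp2 was far higher there. A member was called at an adjusted p below 0.05 (limma, Benjamini-Hochberg over 13597 genes) with a log2 fold change of at least 1. Between FGF-ESC and ICM 13 of 30 members were called, against 14.8% of all tested genes. Between ESC and ICM 15 were called, against 11.4%, and between EpiSC and ICM 14, against 15.3%. Because the list was chosen with earlier results of these data known, such counts are descriptions and not independent evidence. By direction, 12, 13 and 12 members were higher in the line, against 9.57%, 5.82% and 8.48% of all genes, and 1, 2 and 2 were lower, against 5.22%, 5.57% and 6.8%. Fbp2 is among the lower members in each comparison. It was tested only because of its ICM arrays, so its count as lower partly reflects the filter.

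The 3 comparisons share the ICM arrays and are therefore not separate evidence. The median log2 fold change of the tested members was 0.67 for FGF-ESC, 0.81 for ESC and 0.58 for EpiSC relative to ICM, beside -0.02, 0.02 and 0.01 over all tested genes. Without a fold minimum 20 members passed in each of these comparisons, against 36.7%, 33% and 38.4% of all genes. Without FGF-ESC replicate 1, 15 members were called between FGF-ESC and ICM, with Aldoc (1.16) and Mpc1 (-1.28) added, and Pfkp and Ldhb were then at 2.54 and 3.97. Of 21 tested fibroblast markers 1 was higher and 1 lower in ESC than in ICM.

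**Figure D1:**
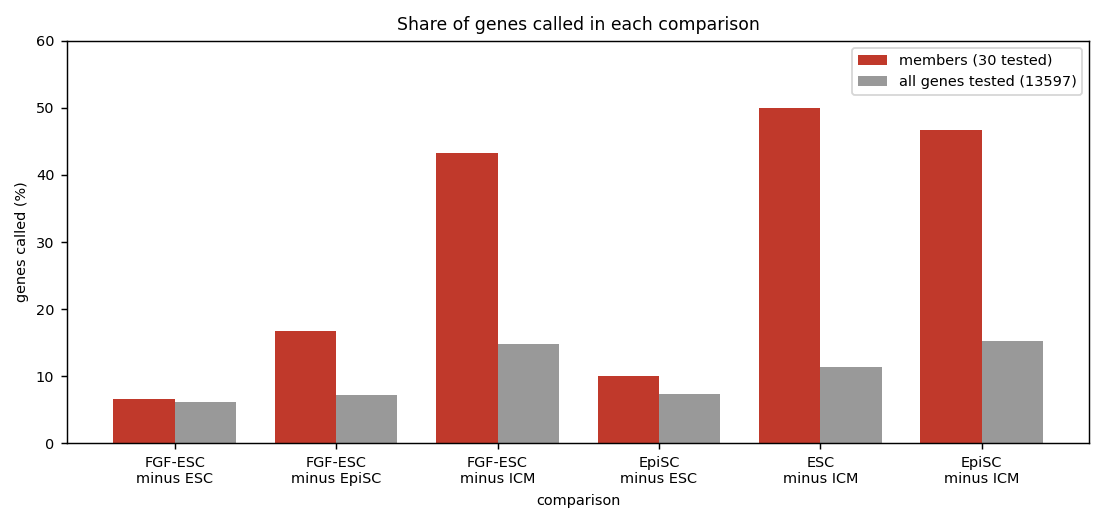
Bars give the percentage of genes called (adjusted p below 0.05 and log2 fold change of at least 1) in each comparison, for the 30 tested members and for all 13597 tested genes. The member bars reach 43.3%, 50% and 46.7% in the comparisons with ICM, against 14.8%, 11.4% and 15.3% of all genes.

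ICM also carried markers of other embryo lineages, whose part in these differences was not tested. The primitive endoderm gene Gata6 was at 8.0 and 8.04 in ICM and at 3.44 to 4.51 in the lines, and both ICM arrays had 6 of 7 primitive endoderm markers above 4.24, where both FGF-ESC arrays had 5, both EpiSC arrays 5 and both ESC arrays 4. Of 6 tested, 3 were lower and 1 higher in ESC than in ICM, and Lama1 was at 6.35 on both ESC arrays and at 5.18 and 5.20 in ICM. The list mean was 5.86 and 5.89 in ICM, against 5.25 and 4.97 in FGF-ESC, 4.52 and 4.58 in EpiSC and 4.46 and 4.57 in ESC. The mean of 8 trophectoderm markers was 5.41 and 5.43 in ICM and 4.44 to 5.01 in the lines. The trophectoderm factor Cdx2 was at 5.76 and 5.02, while Elf5 and Plac1 lay below the median on all 8 arrays.

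Glucose transporters behaved unequally. Slc2a3 encodes GLUT3, a high-affinity glucose transporter, and its probe set was at 5.79 and 5.43 in ICM. The FGF-ESC arrays had 7.19 and 7.88, the ESC arrays 8.60 and 8.61, and the EpiSC arrays 7.23 and 7.47. All 6 line arrays were above both ICM arrays, with ESC on top and the other lines overlapping each other. Relative to ICM it rose by 3.0 ± 0.23 in ESC (SE, n = 2 arrays per group, adjusted p = 4.65e-05), by 1.93 ± 0.23 in FGF-ESC (0.000367) and by 1.74 ± 0.23 in EpiSC (0.000508). Slc2a1, which encodes the widely expressed GLUT1, stayed between 8.51 and 9.14 on all arrays and was called in none of the 6 comparisons.

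Hexokinase traps glucose as its phosphate. Hk2, the inducible paralogue, was at 6.88 and 6.51 in ICM, 7.18 and 7.26 in EpiSC, 7.27 and 7.45 in FGF-ESC and 8.21 and 8.20 in ESC. ESC thus stood above all other groups, and ICM below. The rise in ESC over ICM was 1.51 ± 0.15 (adjusted p = 0.000176), and in FGF-ESC and EpiSC it was 0.67 ± 0.15 and 0.52 ± 0.15, which passed only without a fold minimum (0.00896 and 0.0238). The FGF-ESC result missed the adjusted p in a fit of these groups alone (0.0544), and the EpiSC result without EpiSC replicate 1 (0.0816) or 2 (0.12) or ICM replicate 2 (0.116). Hk1, the constitutive mitochondrial paralogue, was at 4.74 and 5.03 in ICM and 5.01 and 4.88 in EpiSC, which overlapped, against 5.62 to 5.78 on the arrays of FGF-ESC and ESC. It was higher than in ICM by 0.81 ± 0.14 in FGF-ESC and 0.75 ± 0.14 in ESC (adjusted p = 0.0023 and 0.00404), under the fold minimum.

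Phosphofructokinase commits fructose phosphate to glycolysis, and all its paralogues were low in ICM. Pfkl, the liver-type subunit, was at 5.50 and 5.65 in ICM, 7.30 and 7.45 in EpiSC, 6.93 and 7.43 in FGF-ESC and 7.38 and 7.28 in ESC. The lines overlapped each other and all exceeded ICM, by 1.61 ± 0.17, 1.76 ± 0.17 and 1.80 ± 0.17 for FGF-ESC, ESC and EpiSC (adjusted p = 0.000221, 0.000174 and 9.63e-05). Pfkm, the muscle-type subunit, was near background in ICM at 3.95 and 4.25 and lay between 5.32 and 5.68 on the line arrays. Its rises were 1.51 ± 0.14 in FGF-ESC, 1.27 ± 0.14 in ESC and 1.31 ± 0.14 in EpiSC (adjusted p = 0.000119, 0.000349 and 0.00019), and since the ICM mean was under the median of all values they depend on that floor. Pfkp, the platelet-type subunit, was at 4.99 and 4.74 in ICM and, unlike the others, also low in EpiSC, at 5.10 and 5.40. It was 7.70 and 7.76 in ESC and 6.40 and 7.40 in FGF-ESC, a rise over ICM of 2.86 ± 0.29 (adjusted p = 0.000188) and 2.04 ± 0.29 (0.000886).

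Aldolase splits the bisphosphate into trioses and triosephosphate isomerase interconverts them. Tpi1, the isomerase, was at 7.58 and 7.35 in ICM, 9.54 and 9.55 in EpiSC, 9.48 and 9.62 in FGF-ESC and 9.97 and 9.94 in ESC. Every line array was above both ICM arrays, and ESC was the highest group. The rises were 2.08 ± 0.13 in FGF-ESC, 2.49 ± 0.13 in ESC and 2.08 ± 0.13 in EpiSC (adjusted p = 1.28e-05, 5.64e-06 and 8.41e-06). Aldoc, the aldolase best known from brain, was at 3.95 and 4.27 in ICM and at 4.88 to 5.47 in the lines, with a call in ESC (1.24 ± 0.18, adjusted p = 0.00116). In FGF-ESC and EpiSC it was 0.96 ± 0.18 and 0.84 ± 0.18 above ICM (0.00363 and 0.00644), which missed the fold minimum alone. Whether these lines differ from ESC is a separate comparison, in which Aldoc did not pass. All 7 tested members of the hexose phase passed without a fold minimum between ICM and FGF-ESC or ESC, and 5 of 7 between ICM and EpiSC, where 36.7%, 33% and 38.4% of all genes did for FGF-ESC, ESC and EpiSC.

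**Figure D2:**
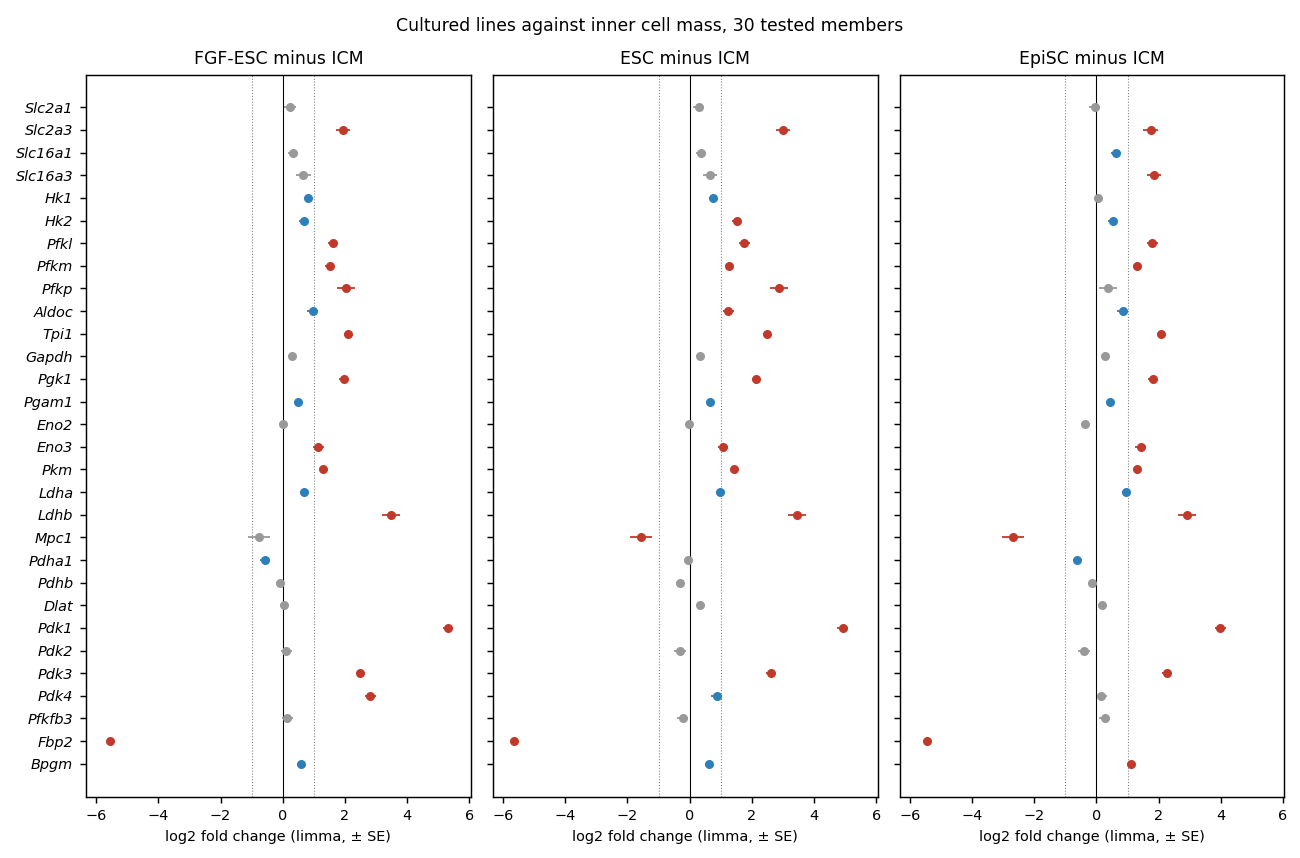
Each point is a tested member's log2 fold change of a line relative to ICM with its limma SE (n = 2 arrays per group), ordered by step. Red points were called, blue points passed the adjusted p only, grey points passed neither, and dotted lines mark a log2 fold change of 1 in either direction. Pdk1 lies farthest to the right (3.98 to 5.31) and Fbp2 farthest to the left (-5.65 to -5.46).

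In the triose phase 3 of 6 enzymes, Pgk1, Eno3 and Pkm, were called higher in each line than in ICM, against 9.57%, 5.82% and 8.48% of all genes for FGF-ESC, ESC and EpiSC. Pgk1, phosphoglycerate kinase, which makes ATP, was at 7.86 and 7.71 in ICM, 9.54 and 9.66 in EpiSC, 9.59 and 9.87 in FGF-ESC and 9.97 and 9.86 in ESC. Its rises for FGF-ESC, ESC and EpiSC were 1.95 ± 0.14, 2.13 ± 0.14 and 1.81 ± 0.14 (adjusted p = 2.69e-05, 2.15e-05 and 2.77e-05). Pkm, pyruvate kinase, which also makes ATP, was at 8.99 and 9.19 in ICM and between 10.37 and 10.57 on the line arrays. It rose by 1.3 ± 0.12 in FGF-ESC, 1.44 ± 0.12 in ESC and 1.3 ± 0.12 in EpiSC (adjusted p = 0.000108, 7.67e-05 and 8.01e-05). The probe set does not separate the M1 and M2 splice forms. Gapdh, the dehydrogenase that makes the substrate of Pgk1 and a common reference gene, was at 10.79 and 10.62 in ICM and 10.93 to 11.04 in the lines and did not pass in any comparison. As a gene with many processed copies in the genome, its signal is uncertain.

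Enolase and phosphoglycerate mutase stand between these kinases. Eno3, the muscle-type enolase, was at 5.34 and 5.56 in ICM, 6.90 and 6.84 in EpiSC, 6.36 and 6.82 in FGF-ESC and 6.53 and 6.52 in ESC. All line arrays exceeded ICM, and the rises for FGF-ESC, ESC and EpiSC were 1.14 ± 0.17, 1.07 ± 0.17 and 1.42 ± 0.17 (adjusted p = 0.00109, 0.00171 and 0.000276). The FGF-ESC value was 0.91 without FGF-ESC replicate 2 and the ESC value 0.96 without ICM replicate 1, both under the fold minimum. Eno2, the neuron-type enolase, was between 4.33 and 4.88 on all arrays and did not pass. Pgam1, the mutase, was 0.42 to 0.64 higher in the lines than in ICM, with an SE of 0.11 (adjusted p = 0.0098 in FGF-ESC, 0.00263 in ESC and 0.0156 in EpiSC), under the fold minimum. Its other probe set had group means of 6.88 in ICM, 6.77 in EpiSC, 6.74 in FGF-ESC and 7.16 in ESC, so the probe sets of Pgam1 disagreed on ICM. With their mean in place of the brighter one, Pgam1 no longer passed against ICM in FGF-ESC (adjusted p = 0.339) and EpiSC (0.372), in ranges over all alternatives of 0.00253 to 0.339 and 0.00425 to 0.372. The EpiSC result also missed it without EpiSC replicate 1 (0.0678) or 2 (0.0885) or ICM replicate 1 (0.0543).

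Lactate dehydrogenase is a tetramer of A and B subunits in any mixture. Ldhb, the subunit of heart-type enzyme, was at 4.36 and 4.80 in ICM, 7.47 and 7.49 in EpiSC, 7.55 and 8.54 in FGF-ESC and 7.98 and 8.08 in ESC. Every line array was above both ICM arrays, and the FGF-ESC arrays bracketed those of ESC. Its rises were 3.47 ± 0.29 in FGF-ESC, 3.46 ± 0.29 in ESC and 2.90 ± 0.29 in EpiSC (adjusted p = 6.23e-05, 7.72e-05 and 0.000119). Ldha, the muscle-type subunit, was dim on its probe set, at 4.07 and 4.08 in ICM and 4.61 to 5.11 in the lines. It exceeded ICM by 0.68 ± 0.13, 0.98 ± 0.13 and 0.96 ± 0.13 for FGF-ESC, ESC and EpiSC (adjusted p = 0.00421, 0.000735 and 0.000578), under the fold minimum. A signal this close to the median of all values, from a gene with processed copies, limits what the Ldha probe set can show.

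Pdk1, a kinase of the pyruvate dehydrogenase complex, had the largest rises over ICM among the members on its brighter probe set. It was at 3.51 and 3.65 in ICM, below the median of all values, and at 7.53 and 7.61 in EpiSC, 8.63 and 9.16 in FGF-ESC and 8.49 and 8.52 in ESC. The rises for FGF-ESC, ESC and EpiSC were 5.31 ± 0.17, 4.92 ± 0.17 and 3.98 ± 0.17 (adjusted p = 5.5e-07, 9.42e-07 and 1.72e-06), each against a floor. On its other probe set the group means were 4.72 in ICM, 5.67 in EpiSC, 6.57 in FGF-ESC and 6.42 in ESC, the same order with smaller steps. With the mean of both probe sets the rises for FGF-ESC, ESC and EpiSC were 3.58, 3.31 and 2.47, of which the ESC and EpiSC values were below the 3.46 and 2.90 of Ldhb. Pdk3 was at 4.70 and 4.27 in ICM, 6.72 and 6.81 in EpiSC, 7.0 and 6.95 in FGF-ESC and 7.10 and 7.08 in ESC. For FGF-ESC, ESC and EpiSC it rose by 2.49 ± 0.15, 2.60 ± 0.15 and 2.27 ± 0.15 (adjusted p = 1.4e-05, 1.31e-05 and 1.42e-05). Pdk2 lay between 4.59 and 5.39 on all arrays, with ICM at 5.26 and 4.97, and did not pass.

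The complex and the carrier that feeds it did not show the pattern of these kinases. Pdhb and Dlat, subunits of the complex, were at 8.67 to 9.10 and 7.10 to 7.53 on all arrays and were not called. Pdha1, the subunit that the kinases phosphorylate, was at 8.34 and 8.0 in ICM, 8.23 and 8.04 in ESC, 7.72 and 7.47 in FGF-ESC and 7.56 on both EpiSC arrays. Against ICM it was lower by a log2 fold change of -0.57 ± 0.15 in FGF-ESC and -0.61 ± 0.15 in EpiSC (adjusted p = 0.0206 and 0.0147), under the fold minimum, and both missed the threshold without ICM replicate 1 (0.107 and 0.0822). The FGF-ESC result also missed it without FGF-ESC replicate 2 (0.0745) or when these groups were fitted alone (0.082), and the EpiSC result without EpiSC replicate 1 (0.0744) or 2 (0.072). Mpc1, a subunit of the mitochondrial pyruvate carrier, was at 6.79 and 6.24 in ICM, 3.83 and 3.82 in EpiSC, 6.26 and 5.24 in FGF-ESC and 5.28 and 4.60 in ESC. Its fold changes relative to ICM were -2.69 ± 0.35 in EpiSC (adjusted p = 0.000501) and -1.57 ± 0.35 in ESC (0.00989). The EpiSC mean was below the median of all values, so the EpiSC fold change is read against a floor. In FGF-ESC, whose arrays overlapped ICM, the fold change of Mpc1 was -0.76 ± 0.35 (adjusted p = 0.125), and it was -1.28 without FGF-ESC replicate 1. The ESC call was lost without ESC replicate 2 (0.0841) or ICM replicate 1 (0.0721) and with the mean of both probe sets, where the fold change was -0.90, in a range of 0.00137 to 0.0841. Its other probe set had group means of 4.92 to 5.28, so the probe sets of Mpc1 disagreed on the size of the difference. With their mean the EpiSC fold change relative to ICM was -1.52.

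Fructose bisphosphatase reverses the phosphofructokinase step. Fbp2, the muscle-type enzyme, was at 9.43 and 9.49 in ICM and between 3.76 and 4.10 on the 6 line arrays, all below the median of all values. It had the largest fold changes of any member, -5.55 ± 0.12 in FGF-ESC, -5.65 ± 0.12 in ESC and -5.46 ± 0.12 in EpiSC (adjusted p = 1.22e-07, 1.28e-07 and 1.11e-07). These are measured against a floor and its passing the filter rested on ICM. Fbp1, the liver-type enzyme, was at 4.61 and 4.08 in ICM and 2.85 to 3.22 in the lines, too dim to be tested. Pcx, pyruvate carboxylase, was at 3.54 to 3.92 on all arrays, also below the median. Bpgm, which makes bisphosphoglycerate, was at 4.11 and 4.09 in ICM and 5.16 and 5.23 in EpiSC, a rise of 1.10 ± 0.12 (adjusted p = 0.000176) from a mean under the median. The FGF-ESC arrays had 4.69 and 4.64 and the ESC arrays 4.63 and 4.81. Their rises over ICM, 0.57 ± 0.12 and 0.62 ± 0.12, passed only without a fold minimum (adjusted p = 0.00638 and 0.00463). The ESC result missed the adjusted p without ESC replicate 2, where the rise was 0.53. Pfkfb3, a bifunctional enzyme that sets the phosphofructokinase activator, was between 3.65 and 4.37 and did not pass, and its paralogue Pfkfb4 was at 3.72 to 3.88.

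**Figure D3:**
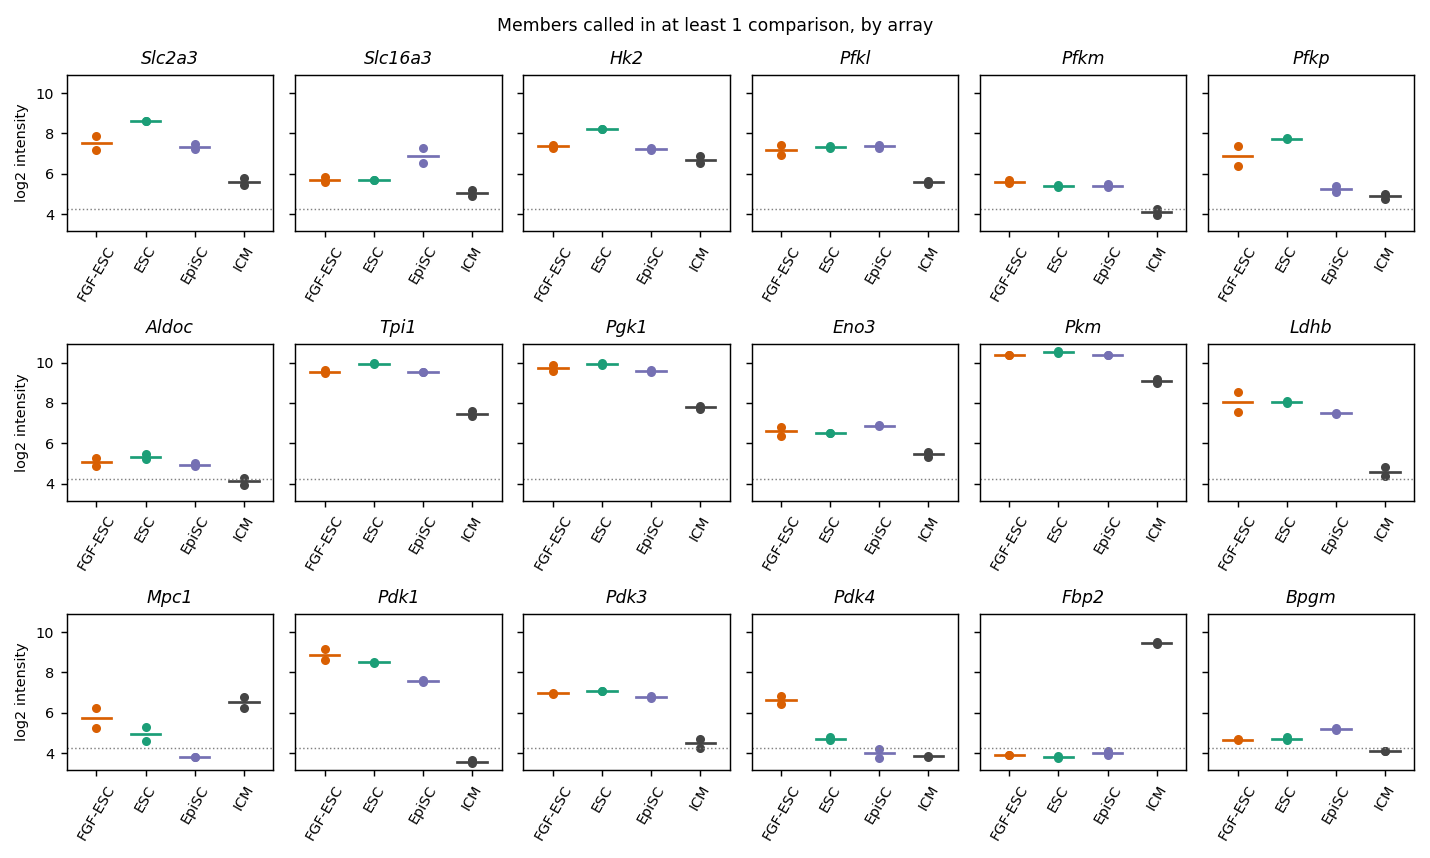
Points are the log2 intensities of single arrays for the 18 members called in at least 1 comparison, bars are the means of 2 arrays, and the dotted line is the median of all values, 4.24. ICM is the lowest group for most of them and the highest for Mpc1 and Fbp2. Pfkp, Slc2a3, Slc16a3, Pdk4, Pdk1 and Mpc1 were called between lines.

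Among the lines far fewer members were called. Between EpiSC and ESC, the primed and the naive state, 3 of 30 members passed against 7.36% of all tested genes: Slc16a3 was higher in EpiSC (3.86% of all genes were), and Pfkp and Slc2a3 were lower (3.5%). The median over members was -0.27, beside -0.01 over all genes. Pfkp, at 5.10 and 5.40 in EpiSC against 7.70 and 7.76 in ESC, had a log2 fold change of -2.48 ± 0.29 (n = 2 arrays per group, adjusted p = 0.000647), which kept its call under every alternative run. Slc2a3 had -1.26 ± 0.23 (adjusted p = 0.00606) and missed the threshold without ESC replicate 1 (0.0527), ESC replicate 2 (0.0531) or EpiSC replicate 1 (0.0584), in a range of 0.000196 to 0.0584.

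Slc16a3 encodes MCT4, the low-affinity transporter that exports lactate. It was at 6.53 and 7.27 in EpiSC, 5.68 and 5.70 in ESC, 5.58 and 5.82 in FGF-ESC and 4.90 and 5.17 in ICM. EpiSC stood above all other groups, with the widest gap between its own arrays. The rise over ESC was 1.21 ± 0.23 (adjusted p = 0.00739) and over ICM 1.86 ± 0.23 (0.000352). The call against ESC was lost without ESC replicate 1 (0.0626), ESC replicate 2 (0.0582) or EpiSC replicate 2, where the fold change was 0.84, in a range of 0.00307 to 0.0626. Slc16a1, which encodes MCT1, the more general transporter of lactate and pyruvate, was at 7.33 and 7.37 in EpiSC and 6.54 to 7.22 elsewhere. It was called in no comparison and passed without a fold minimum only between EpiSC and ICM (0.64 ± 0.16, adjusted p = 0.0135), where it missed the threshold without EpiSC replicate 1 (0.0637) or 2 (0.0736) or ICM replicate 1 (0.077).

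Without a fold minimum 9 members passed between EpiSC and ESC, against 19% of all genes, 7 of them lower in EpiSC. By that rule 1244 of all 13597 tested genes were lower in EpiSC and 1340 were higher. Besides Pfkp and Slc2a3 the lower members were Hk2 (-0.99 ± 0.15, adjusted p = 0.00243), Pdk1 (-0.94 ± 0.17, 0.00679), Pdk4 (-0.73 ± 0.18, 0.0239), Hk1 (-0.69 ± 0.14, 0.00982) and Pdha1 (-0.57 ± 0.15, 0.0348). Bpgm was higher (0.48 ± 0.12, 0.0236). Of these, Hk2 kept its adjusted p under every alternative run, while Hk1, Pdk1, Pdk4, Pdha1 and Bpgm each missed it without either ESC array (0.0546 to 0.228). So did Pdk1, Pdk4, Pdha1 and Bpgm without EpiSC replicate 1 (0.0583 to 0.17), Hk1, Pdha1 and Bpgm without EpiSC replicate 2 (0.0795 to 0.149), and Pdha1 with median centring (0.0659). No triose phase member passed by either rule in this comparison, in which all 6 were tested. The count of 3 calls became 1 without either ESC array, and the count of 9 became 2 without either of them, 4 without EpiSC replicate 1, 14 in a fit without the FGF-ESC arrays and 17 in a fit of these groups alone. Fibroblast markers differed here as well, with 5 of 21 tested higher in EpiSC, and their part was not tested.

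**Figure D4:**
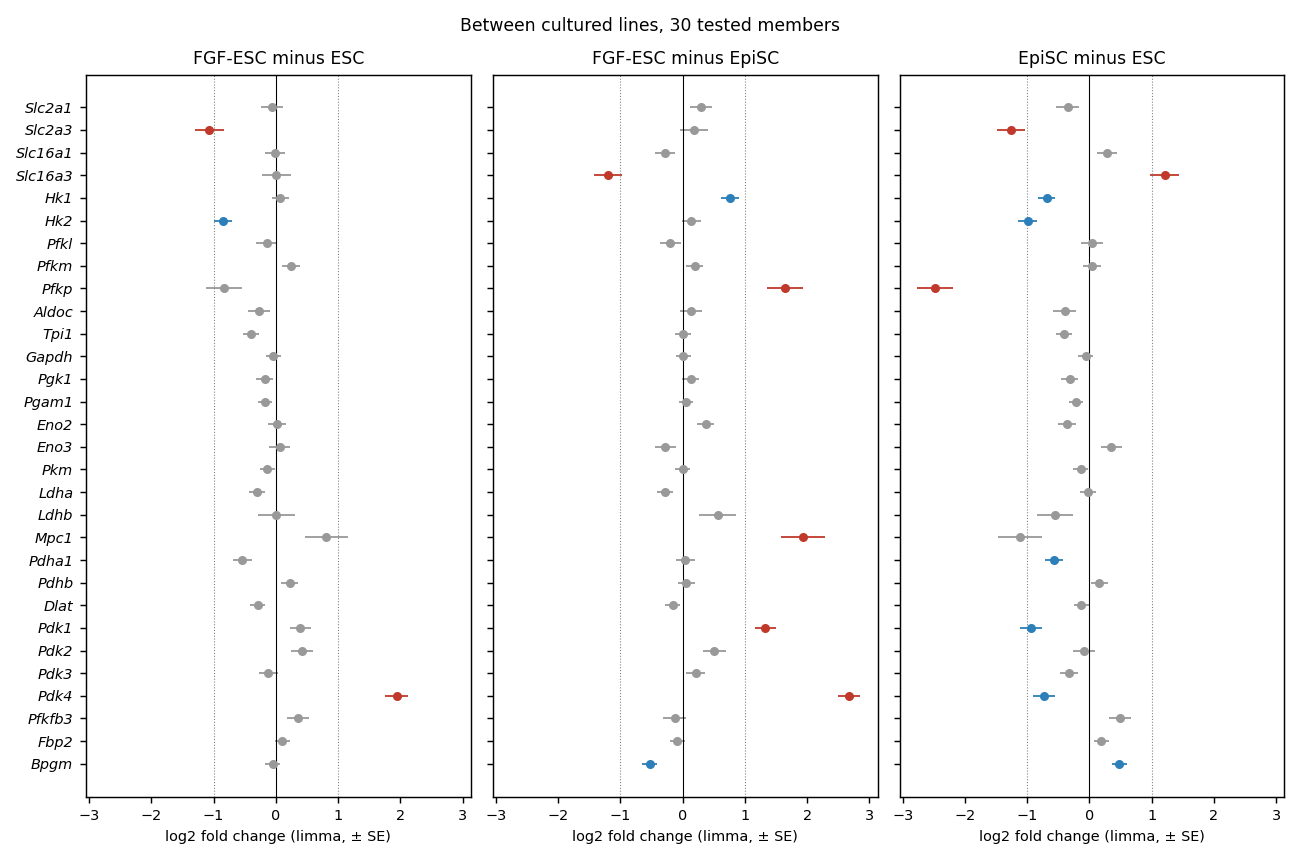
Each point is a tested member's log2 fold change between lines with its limma SE (n = 2 arrays per group), with red, blue and grey points and dotted lines as in the plot against ICM. Most members lie between the dotted lines, while Pdk4 lies to the right in both comparisons of FGF-ESC (1.94 and 2.67) and Pfkp to the left for EpiSC relative to ESC (-2.48).

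Between FGF-ESC and ESC 2 of 30 members were called, against 6.21% of all genes, 1 higher (5.27% of all genes were) and 1 lower (0.934%). The median over members was -0.05, beside -0.06 over all genes. Pdk4, a kinase of the pyruvate dehydrogenase complex that is induced on fasting, was at 3.81 and 3.86 in ICM, 3.78 and 4.20 in EpiSC, 6.84 and 6.46 in FGF-ESC and 4.64 and 4.78 in ESC. FGF-ESC stood above all other groups, and EpiSC and ICM were below the median of all values. The rise over ESC was 1.94 ± 0.18 (adjusted p = 0.00051) and kept its call under every alternative run, among them the fit without FGF-ESC replicate 1, with fold changes of 1.75 to 2.13. Over EpiSC it was 2.67 ± 0.18 (7.96e-05) and over ICM 2.81 ± 0.18 (1.63e-05). Beside this rise, FGF-ESC exceeded ESC in 19 of 21 tested fibroblast markers, and the array with the higher marker mean also had the higher Pdk4 value. Their part in the result was not tested.

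Slc2a3 was the other call, with a log2 fold change of -1.07 ± 0.23 in FGF-ESC relative to ESC (adjusted p = 0.0184). Its FGF-ESC arrays, at 7.19 and 7.88, were both below the ESC arrays at 8.60 and 8.61, and the lower value was on the array with more fibroblast signal. The fold change was -0.73 without FGF-ESC replicate 1, under the fold minimum, and leaving out ESC replicate 1 or 2 gave an adjusted p of 0.122 or 0.116 and a fit of these groups alone 0.066, in a range of 0.000874 to 0.122. Without a fold minimum 3 members passed, against 15.3% of all genes, the third being Hk2 (-0.85 ± 0.15, adjusted p = 0.00884), which missed it without ESC replicate 1 (0.0848) or 2 (0.0761). The count of 2 became 1 without FGF-ESC replicate 1 or either ESC array, and 4 without FGF-ESC replicate 2, where Mpc1 and Pfkp joined. Of the phosphofructokinases, Pfkp differed most between the FGF-ESC arrays, at 6.40 and 7.40.

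Between FGF-ESC and EpiSC, which shared medium and feeders, 5 of 30 members were called against 7.28% of all genes, 4 higher and 1 lower in FGF-ESC (5.26% and 2.02% of all genes). The median over members was 0.09, beside -0.04 over all genes. Pdk1 rose by 1.33 ± 0.17 (adjusted p = 0.00154) and Pdk4 by 2.67 ± 0.18. Pfkp rose by 1.65 ± 0.29 (0.00548) and the Mpc1 probe set by 1.93 ± 0.35 (0.00682), from an EpiSC mean below the median of all values. Slc16a3 was lower by a log2 fold change of -1.20 ± 0.23 (0.00833). Both Pfkp and Mpc1 missed the threshold without EpiSC replicate 1 (0.0548 and 0.0523), in ranges of 0.000133 to 0.0548 and 0.00067 to 0.0523, so that 3 calls were left. With the mean of its probe sets Mpc1 rose by 1.03. Slc16a3 was at -0.84 without EpiSC replicate 2 and missed in a fit of these groups alone (0.0553), in a range of 0.00466 to 0.0553. Without FGF-ESC replicate 1 there were 6 calls, with Ldhb added (1.06) and Pfkp at 2.15. By adjusted p alone 7 members passed, against 19.8% of all genes, including Hk1 (0.76 ± 0.14, 0.00682) and Bpgm (-0.53 ± 0.12, 0.0159). Without EpiSC replicate 2 both missed it (0.0597 and 0.101), and Bpgm also without EpiSC replicate 1 (0.0807) or when these groups were fitted alone (0.0544). Here 19 of 21 tested fibroblast markers were higher in FGF-ESC.

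Taking all groups at once, 23 of 30 members passed limma's F test for any difference among the 4 groups (adjusted p below 0.05), against 50.8% of all tested genes. In the pairwise comparisons 18 members had at least 1 call, and the 12 without one were Slc2a1, Slc16a1, Hk1, Gapdh, Pgam1, Eno2, Ldha, Pdha1, Pdhb, Dlat, Pdk2 and Pfkfb3. A missed threshold with 2 arrays per group does not show that their levels were equal.

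Paralogues of a step moved unequally. The difference between their probe sets was taken within each array, which removes array-wide scaling. Only its change between groups was read, because probe sets of different genes have no common scale. Pfkp minus Pfkl was 0.32 and 0.47 in ESC, -0.53 and -0.02 in FGF-ESC, -0.51 and -0.90 in ICM and -2.20 and -2.05 in EpiSC. EpiSC was thus at -2.52 relative to ESC and -1.42 relative to ICM, with a pooled SD of 0.24 between arrays of a group. Slc2a3 minus Slc2a1 was -0.52 and -0.38 in ESC, -1.28 and -1.45 in EpiSC, -1.68 and -1.26 in FGF-ESC and -2.86 and -3.47 in ICM (pooled SD 0.27). ESC was highest for this pair, ICM lowest, and the other lines overlapped between them.

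In other pairs a probe set was below the median of all values in ICM, Ldha at 4.07 and 4.08 and Pdk1 at 3.51 and 3.65, so their shifts relative to ICM are read against a floor. Ldhb minus Ldha was 0.29 and 0.72 in ICM and 2.43 to 3.66 in the lines, a shift of 2.48 in ESC relative to ICM (pooled SD 0.31). Eno3 minus Eno2 was 0.64 and 0.83 in ICM, 1.83 on both ESC arrays and 2.56 and 2.51 in EpiSC, with FGF-ESC at 1.48 and 2.28 (pooled SD 0.29). Pdk1 minus Pdk2 shifted by 5.23 between ICM and ESC (pooled SD 0.36), and by 3.62 with the mean of the Pdk1 probe sets. Slc16a3 minus Slc16a1 was -0.80 and -0.10 in EpiSC, above the -1.40 and -1.35 of ESC (pooled SD 0.32). Hk2 minus Hk1 was 2.57 and 2.58 in ESC and 1.49 and 1.83 in FGF-ESC, a shift of -0.92 (pooled SD 0.27). Pdk4 minus Pdk1 was -1.79 and -2.70 in FGF-ESC against -3.84 and -3.74 in ESC, a shift of 1.55 (pooled SD 0.35). These shifts are given as descriptions, without a test.

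**Figure D5:**
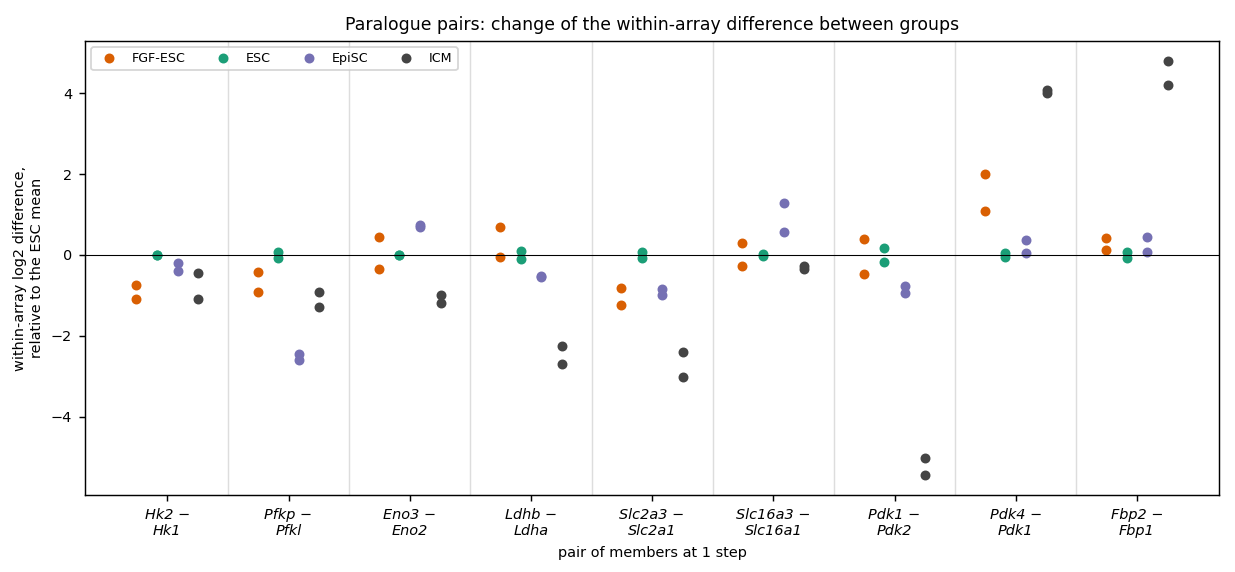
Points are single arrays, showing the within-array log2 difference between probe sets of 2 members that serve the same step, relative to the mean of the ESC arrays for that pair. EpiSC lies at about the level of -2.52 for Pfkp minus Pfkl, and ICM is displaced for the pyruvate dehydrogenase kinase, lactate dehydrogenase and fructose bisphosphatase pairs, in each of which a probe set lies below the median of all values in ICM or in the lines. ICM also lies below ESC for Slc2a3 minus Slc2a1 (by 2.71), Pfkp minus Pfkl (1.1) and Eno3 minus Eno2 (1.09). The probe sets of these pairs are above that median in ICM.

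Other genes of the pathway that were not members were read from lists. Among 9 tested further glycolysis genes, 1 was lower in FGF-ESC than in ICM, 0 in ESC and 3 in EpiSC, and 0 were higher in any line, where 5.22%, 5.57% and 6.8% of all genes were lower. The medians relative to ICM were -0.39, -0.18 and -0.38 for FGF-ESC, ESC and EpiSC. Without a fold minimum 5, 3 and 4 genes were lower and 1 was higher in each line. By that rule 36.7%, 33% and 38.4% of all genes passed in either direction. The only gene called in more than 1 of the 6 comparisons was Tigar, a phosphatase of fructose bisphosphate, at 7.31 and 7.11 in ICM, 6.99 and 7.06 in ESC, 5.84 and 6.21 in FGF-ESC and 5.48 and 5.69 in EpiSC. EpiSC and FGF-ESC were thus both below ESC and ICM. Its log2 fold change was -1.62 ± 0.16 in EpiSC relative to ICM (adjusted p = 0.000104), -1.18 ± 0.16 in FGF-ESC (0.000691), and -1.44 ± 0.16 in EpiSC relative to ESC (0.0005). Without FGF-ESC replicate 1 the FGF-ESC value of Tigar just missed the fold minimum. Pfkfb2, another gene of this list, took its place there at -1.01 relative to ICM. In the fit of all arrays Pfkfb2 was called in EpiSC relative to ICM (-1.24 ± 0.17, adjusted p = 0.000746).

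Of 13 tested further genes of pyruvate, lactate and their transport, 2 were higher and 3 lower in each line than in ICM. Of all genes 9.57%, 5.82% and 8.48% were higher and 5.22%, 5.57% and 6.8% lower in FGF-ESC, ESC and EpiSC. Pdp2, a phosphatase that reverses the action of the Pdk kinases, was at 8.76 and 9.24 in ICM, 5.82 and 6.10 in EpiSC, 5.32 and 5.40 in FGF-ESC and 6.03 and 6.17 in ESC. Its fold changes for FGF-ESC, ESC and EpiSC were -3.64 ± 0.18, -2.90 ± 0.18 and -3.04 ± 0.18 (adjusted p = 4.84e-06, 1.73e-05 and 7.51e-06), opposite in sign to those of Pdk1 and Pdk3. Emb, embigin, a partner protein of monocarboxylate transporters, was at 6.10 and 5.41 in ICM, 7.76 and 7.86 in ESC, 8.63 and 8.66 in FGF-ESC and 9.11 and 9.27 in EpiSC. It rose over ICM by 2.89 ± 0.21 in FGF-ESC, 2.06 ± 0.21 in ESC and 3.43 ± 0.21 in EpiSC (adjusted p = 2.86e-05, 0.000201 and 8.6e-06). Over ESC it rose by 1.38 ± 0.21 in EpiSC (0.00243). With the mean of its probe sets the rise of Emb in ESC over ICM was 0.92, under the fold minimum. EpiSC was the highest group for both Emb and Slc16a3. Me2, the mitochondrial malic enzyme, rose over ICM by 1.04 ± 0.12 in FGF-ESC, 1.47 ± 0.12 in ESC and 1.45 ± 0.12 in EpiSC (adjusted p = 0.000334, 6.8e-05 and 4.43e-05). The FGF-ESC value of Me2 fell under the fold minimum without FGF-ESC replicate 2 (0.98) or ICM replicate 1 (0.94).

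The citrate cycle burns the acetyl-CoA made from pyruvate. Of its 16 tested genes 0, 2 and 1 were called in FGF-ESC, ESC and EpiSC relative to ICM, all of them lower in the line, with medians of 0.07, 0.08 and -0.03. Of all genes 5.22%, 5.57% and 6.8% were lower by this rule. Suclg2, a succinyl-CoA ligase subunit, was at 8.97 and 8.91 in ICM and 7.16 and 7.26 in ESC (-1.72 ± 0.12, adjusted p = 3.8e-05), and at 8.34 and 8.39 in EpiSC, a rise of 1.15 ± 0.12 over ESC (0.000467). Sucla2, the alternative subunit to Suclg2 in that ligase, had -1.11 ± 0.14 in ESC and -1.19 ± 0.14 in EpiSC relative to ICM (0.000538 and 0.000244). Among 8 tested pentose phosphate genes, Rpia, which isomerises ribose phosphate, was at 6.26 and 6.35 in ICM and 4.24 to 4.57 in the lines, with fold changes for FGF-ESC, ESC and EpiSC of -1.86 ± 0.14, -1.87 ± 0.14 and -1.96 ± 0.14 (adjusted p = 3.3e-05, 3.99e-05 and 1.82e-05). The nucleotide precursor enzyme Prps1 had -1.01 ± 0.15 in FGF-ESC and -1.05 ± 0.15 in ESC (0.00108 and 0.00104). Both were close to the fold minimum, and the FGF-ESC call was lost without FGF-ESC replicate 1 (-0.86) or ICM replicate 1 (-0.99), with median centring (-0.96) and with quantile normalization (-0.93). The ESC call was lost without ESC replicate 2 (-0.97) and with quantile normalization (-0.94). Of all genes 5.22%, 5.57% and 6.8% were lower in FGF-ESC, ESC and EpiSC, and no gene of this list was called higher in a line.

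Targets of the hypoxia-inducible factors outside glycolysis moved both ways relative to ICM. Of 17 tested, 6 were higher and 3 lower in FGF-ESC, 2 and 4 in ESC and 3 and 4 in EpiSC, beside the shares of all genes given for the pyruvate genes. Vegfa, an angiogenic growth factor, was at 5.22 and 4.99 in ICM and rose by 2.12 ± 0.13 in FGF-ESC, 1.33 ± 0.13 in ESC and 1.48 ± 0.13 in EpiSC (adjusted p = 1.28e-05, 0.000159 and 5.5e-05). P4ha1, a collagen prolyl hydroxylase subunit, was at 7.42 and 7.51 in ICM, with -1.90 ± 0.16 in ESC and -1.76 ± 0.16 in EpiSC (7.43e-05 and 6.72e-05). Plod2, a collagen lysyl hydroxylase, had -1.09 ± 0.13 in FGF-ESC, -2.47 ± 0.13 in ESC and -1.29 ± 0.13 in EpiSC (0.00041, 7.83e-06 and 0.000135), the FGF-ESC value being -0.97 without ICM replicate 1. Between FGF-ESC and ESC, 6 of these 17 genes were higher and 0 lower, against 5.27% and 0.934% of all genes, with a median of 0.73, among them P4ha1 (1.52 ± 0.16, 0.00088) and Plod2 (1.37 ± 0.13, 0.000632). Without FGF-ESC replicate 1 there were 7. Between FGF-ESC and EpiSC 4 genes of this list were higher and 0 lower, against 5.26% and 2.02% of all genes, with a median of 0.6. P4ha1 and Plod2 both act on collagen, and the FGF-ESC arrays had the high fibroblast marker means given above, whose part was not tested.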

How the data were processed

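Total RNA of 8 samples was amplified, tagged with biotin (NuGEN kits) and hybridised to Affymetrix mouse gene arrays, per the labels' protocols. The authors deposited 1 log2 intensity per probe set and array, and the submitters' processing notes name Expression Console 1.3.1. The log2 scale was read from the range of the values. How probes were summarised, and the genome build, is not given in those sources.

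Of 41345 probe sets, 23521 had 1 gene, 1814 several and 16010 none in the platform annotation. The brightest probe set stood for a gene. A means model over all 8 arrays was fitted with limma 3.58.1 in R 4.3.3 (4 residual degrees of freedom), with Benjamini-Hochberg adjustment over 13597 genes in each of 6 comparisons. The p-values reflect spread among these samples alone, possibly technical, and the number of arrays limits the precision. The code was tested on simulated data. The members and lists were chosen with earlier results of these data known. Members with a call were described by array, as were up to 3 called genes of each other list by the F test. Alternatives were the block, a fit of 2 groups, quantile and median scaling, other filters, the mean of probe sets, a trended robust variance, each array left out and, added after seeing the data, a fit without FGF-ESC. Same-numbered arrays deviated from their group means with correlations of -0.086 to 0.042. The labels do not say that the numbers pair samples, and with 2 arrays per group these correlations cannot settle it.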

Additional observations from a re-analysis of the deposited data

How the results depend on the processing

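Of 52 member calls, 43 were kept under every alternative run for them and 0 changed sign. The 9 others, of Slc2a3, Slc16a3, Pfkp, Eno3 and Mpc1, were lost 19 times, mostly when an array of ESC or EpiSC was left out. Of 27 results that passed only without a fold minimum, 10 kept it throughout. With the replicate number as a block the called members numbered 2, 5 and 13 for FGF-ESC against ESC, EpiSC and ICM, 4 for EpiSC against ESC, and 15 and 14 for ESC and EpiSC against ICM, and 0 of the 52 calls were lost. Leaving out 1 array gave 1 to 4 member calls for FGF-ESC and ESC, 3 to 6 for FGF-ESC and EpiSC and 1 to 3 for EpiSC and ESC. Without a fold minimum these ranges were 1 to 8, 4 to 10 and 2 to 6. For all genes between FGF-ESC and ESC, 844 calls became 374 to 1287, and 526, with 1 member, when those groups alone were fitted. Without a fold minimum that comparison had 5 members with the stricter filter and also 5 with trended robust variance, while EpiSC and ESC had 17 in a fit of these groups alone and 14 in a fit without FGF-ESC. Without FGF-ESC replicate 1, called genes of the other lists moved from 2 to 1 for pentose phosphate genes against ICM (Prps1 lost), from 0 to 1 for citrate cycle genes against ESC (Suclg2, 1.09) and from 1 to 0 for regulators against ESC (Myc, 0.88). The shift of Pdk1 minus Pdk2 between ESC and ICM was 3.62 with the mean of probe sets. The causes were not tested. Values near or below the median of all values limit folds for Pdk1, Fbp2, Pfkm, Aldoc, Ldha, Pdk4, Mpc1 and Bpgm.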

Other observations

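Genes that regulate glycolysis were read from a list of 9 tested genes, whose medians relative to ICM were 0.48 in FGF-ESC, 0.41 in ESC and 0.95 in EpiSC. Epas1, which encodes HIF2 alpha, was at 8.06 and 7.75 in ICM, 4.20 and 4.57 in EpiSC, 7.08 and 7.22 in FGF-ESC and 6.57 and 6.54 in ESC. EpiSC was far below every other group, with log2 fold changes of -3.52 ± 0.16 relative to ICM and -2.17 ± 0.16 relative to ESC (limma adjusted p = 2.21e-06 and 7.77e-05). Lin28a, an RNA-binding protein of pluripotent cells, was lowest in ICM and highest in EpiSC, at 5.72 and 5.83 in ICM, 7.67 and 7.46 in EpiSC, 6.36 and 6.48 in FGF-ESC and 6.85 and 6.83 in ESC, and rose by 1.79 ± 0.12 in EpiSC over ICM (adjusted p = 1.71e-05). Myc was at 7.73 and 7.50 in EpiSC and 5.81 and 5.84 in ESC, a rise of 1.79 ± 0.18 (adjusted p = 0.000335), with FGF-ESC at 7.24 and 6.71 and ICM at 6.43 and 6.55. Of these regulators 2 were higher and 1 lower in EpiSC than in ESC, against 3.86% and 3.5% of all genes.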
